A study of Mus musculus with 12 samples.

Results

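TRBV14 and TRBV15 are neighbouring variable segments of the mouse T cell receptor β chain locus, and the cells described here are those whose TRB contig with the most unique molecular identifiers (UMIs, counts of single captured transcripts) carried one of them. They numbered 5757 of the 76281 cells of the deposited cell table that had a TRB contig, 3291 with TRBV14 and 2466 with TRBV15. The cells came from spleens of wild-type C57BL/6 mice. Of these, 5 mice received antibody 3H3 against CD137 (a receptor that costimulates T cells once they are activated) at 10 µg, and 10 mice received the Ig control HRPN at 100 µg, in both cases on 2 occasions a week for 14 days. CD44-high T cells were sorted into effector cells (Teff, PD1 negative), precursor exhausted cells (Tpex, PD1 and Slamf6 positive, Tim3 negative) and exhausted cells (Tex, PD1 and Tim3 positive, Slamf6 negative), and each of the 6 populations gave 1 gene expression and 1 receptor library from single cells. The control differs from the treatment in dose and in number of mice, and cells are not tied to single mice in the labels, so a clone of 1 mouse and a feature of its whole group cannot be told apart.

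A T cell builds its β chain by joining 1 V, 1 D and 1 J segment, with bases trimmed from the ends and others added in the junction, and the joined stretch is read as the third complementarity determining region (CDR3). CDR1 and CDR2 are fixed by the V segment, while CDR3 differs between clones and makes much of the contact with the peptide. Cells that descend from 1 rearranged ancestor share the CDR3 bases, so a clonotype was defined here by TRBV, TRBJ and the CDR3 nucleotides within a library.

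On chromosome 6 of GRCm38 (mm10), TRBV14 lies at chr6:41135145-41135616 and TRBV15 at chr6:41141188-41141658, both on the plus strand with 2 exons each. The gap between them is 5571 bases, with TRBV13-3 upstream of TRBV14 and TRBV16 downstream of TRBV15. The variable regions after the leader are given from the GENCODE M21 transcripts, because they set what these receptors have in common, and the capitals mark CDR1, CDR2 and the germline part of CDR3 in that order.

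TRBV14: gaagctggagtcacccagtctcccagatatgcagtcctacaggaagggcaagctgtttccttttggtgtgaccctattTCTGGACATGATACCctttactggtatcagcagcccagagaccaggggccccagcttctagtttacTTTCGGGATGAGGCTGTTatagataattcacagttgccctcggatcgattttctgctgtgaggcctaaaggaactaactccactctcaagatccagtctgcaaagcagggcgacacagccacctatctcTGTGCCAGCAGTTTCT
TRBV15: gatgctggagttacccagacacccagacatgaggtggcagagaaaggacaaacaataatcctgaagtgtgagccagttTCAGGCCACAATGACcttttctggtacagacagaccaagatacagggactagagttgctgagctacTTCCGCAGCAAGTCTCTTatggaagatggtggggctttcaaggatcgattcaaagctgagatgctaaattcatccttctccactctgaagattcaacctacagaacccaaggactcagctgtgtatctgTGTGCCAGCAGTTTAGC

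Although adjacent, the segments were identical at only 164 of the 273 bases before CDR3, or 60.1%. Their CDR3 parts begin with the same 14 bases, tgtgccagcagttt, a start that 2 of the 21 segments compared carry, and go on with CT in TRBV14 and AGC in TRBV15.

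The libraries differed in depth and in how many cells had a receptor. With both treatments together, the cells with a TRB numbered between 5837 and 24035 per library. A TRB was found in 45.3% of anti-CD137 Tpex cells and 59.0% of anti-CD137 Tex cells, against 79.5% to 87.5% in the other libraries. Median UMIs per cell were 1950 in anti-CD137 Tpex, against 4729 in Ig control Tpex, and 66.6% of the TRB barcodes of the anti-CD137 Tpex library lay outside the cell table, against 14.0% in its control. Of the TRBV14 and TRBV15 cells, 744 (12.9%) had a barcode that also occurred in another library, in or outside the cell table. Among the TRBV14 and TRBV15 cells of the table, 0 barcodes carried the same TRB in more than 1 library. Barcodes outside the table were not compared in this way. Gene expression values were not analysed here, so the sorted subsets were not checked against marker genes, and clusters are given by the authors' numbers. Since each group is 1 library, no p-value is given, and the exact 95% intervals cover counting error only and treat cells of a clone as independent.

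TRBV14 made up a larger share of cells under anti-CD137 than under Ig control in Tpex and Tex, and in Teff the difference was within counting error. In Teff it was found in 1149 cells (4.78%) under anti-CD137 and 919 cells (4.46%) under Ig control. In Tpex it was found in 311 cells (5.20%) under anti-CD137 and 359 cells (3.19%) under Ig control. The Tex libraries held 319 such cells (5.47%) under anti-CD137 and 234 (2.73%) under Ig control. The difference was 2.01 percentage points in Tpex (95% interval 1.37 to 2.68) and 2.74 points in Tex (2.06 to 3.44), while in Teff the interval included 0 (−0.0759 to 0.711). The Teff interval excluded 0 among paired cells, at 0.435 points (0.00597 to 0.863), and without barcodes found in more than 1 library, at 0.476 points (0.0573 to 0.892). TRBV15 gave a different order. It made up 3.83% of cells in both Teff libraries (920 and 788 cells), 4.77% in anti-CD137 Tpex (285 cells) against 1.86% in Ig control Tpex (209 cells), and 2.30% in anti-CD137 Tex (134 cells) against 1.52% in Ig control Tex (130 cells). The TRBV15 difference was 2.91 points in Tpex (2.32 to 3.53) and 0.780 points in Tex (0.316 to 1.27). Without the 10 largest clonotypes of each library, an alternative chosen after the data were seen, the TRBV15 difference in Tex was 0.355 points and its interval included 0 (−0.319 to 1.04), and among cells of like UMI depth it was 0.237 points (−0.506 to 0.973). TRBV15 was thus highest in anti-CD137 Tpex, and TRBV14 highest in anti-CD137 Tex, where its interval overlapped that of anti-CD137 Tpex.

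Counted once per clonotype, the treatment difference in points was smaller for both segments in Tpex and Tex. TRBV14 made up 5.11% of 3095 clonotypes in anti-CD137 Tpex and 4.45% of 5666 in Ig control Tpex, and 3.88% of 1315 in anti-CD137 Tex and 2.61% of 1112 in Ig control Tex. Both differences had intervals that included 0, 0.657 points in Tpex (−0.283 to 1.64) and 1.27 points in Tex (−0.213 to 2.74). The TRBV15 share of clonotypes was 4.30% in anti-CD137 Tpex and 2.77% in Ig control Tpex, a difference of 1.53 points (0.699 to 2.40) that excluded 0. In Tex it was 3.04% under anti-CD137 and 2.34% under Ig control, with an interval of −0.668 to 2.05 points. In Teff the clonotype shares were 4.82% under anti-CD137 and 4.49% under Ig control for TRBV14, and 3.87% under anti-CD137 and 3.65% under Ig control for TRBV15. The TRBV15 excess of anti-CD137 Tpex over Ig control Tpex was therefore present among the clonotypes as well as the cells. For TRBV14 the counting error covered the clonotype difference.

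**Figure D1:**
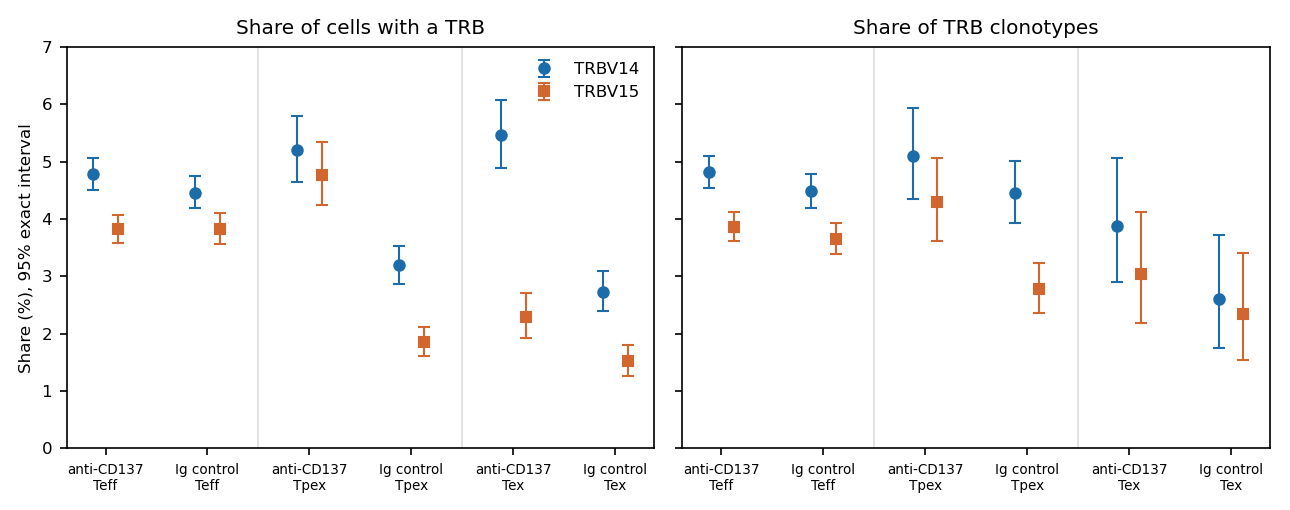
Share of cells with a TRB (left) and of TRB clonotypes (right), in percent, that carried TRBV14 (circles) or TRBV15 (squares) in each library. Bars are exact 95% intervals. TRBV15 in Tpex stands at 4.77% of cells under anti-CD137 and 1.86% under Ig control, and by clonotypes at 4.30% and 2.77% in the same order.

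Other segments also shifted between treatments, so the ratios are read against all segments that reached 1% in either library. TRBV5 made up 14.0% of Ig control and 4.01% of anti-CD137 Tpex cells, and 27.7% and 9.08% of Tex cells in the same order. For TRBV2 these shares were 10.9% and 1.09% in Tpex, and 12.8% and 0.942% in Tex. Segments that fill a library lower the shares of all others in it, and their part in the differences was not tested. In Tpex the ratio of shares of cells was 1.63 for TRBV14 and 2.57 for TRBV15, beside a median of 1.28 over all segments. Both were past 1.5-fold higher, as were 21.1% of the 19 segments compared (31.6% in either direction), and TRBV15 had the highest ratio of them. By clonotypes the ratios were 1.15 for TRBV14 and 1.55 for TRBV15, the second highest of 20 segments, of which 15% were past 1.5-fold higher. In Tex the cell ratios were 2.003 for TRBV14 and 1.51 for TRBV15, again both past 1.5-fold, but 45% of the 20 segments were (60% in either direction), and the median ratio over all segments was 1.45. No member was past 1.5-fold by clonotypes in Tex, where the ratios were 1.49 for TRBV14 and 1.30 for TRBV15 and 10% of 20 segments were. In Teff neither member nor any other segment passed it (0% of 20).

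**Figure D2:**
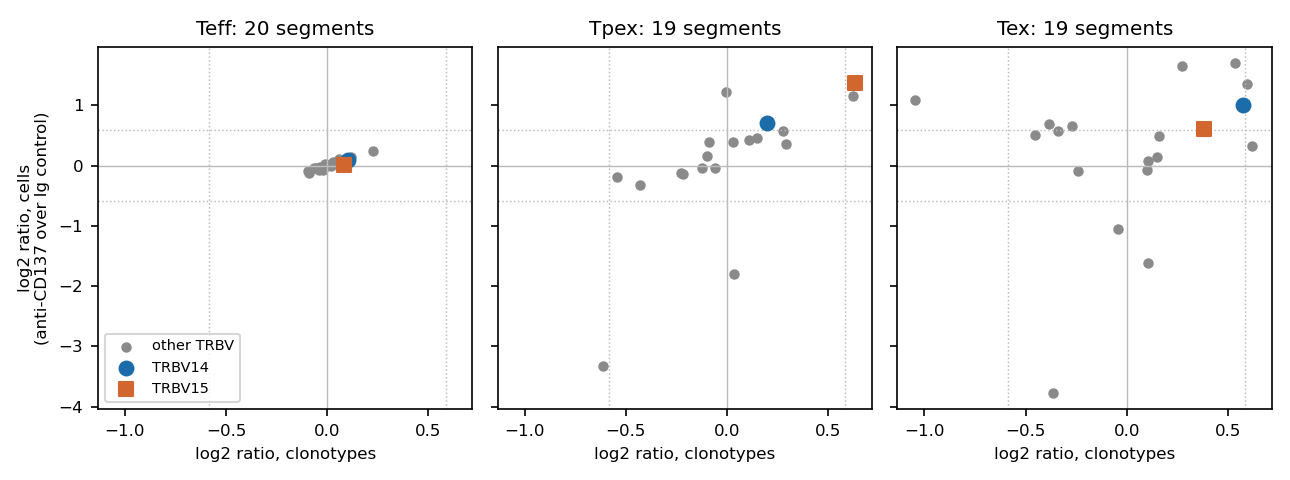
Log2 ratio of the share under anti-CD137 over that under Ig control, by clonotypes (x axis) and by cells (y axis), for the segments with at least 1% in either library on both counts. Dotted lines mark 1.5-fold in either direction. TRBV15 is the uppermost point in Tpex, with ratios of 2.57 by cells and 1.55 by clonotypes.

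Within a treatment the segments also differed by subset, in comparisons that share libraries with each other. In anti-CD137 Tpex over Teff, the TRBV15 ratio was 1.245 by cells, a difference of 0.938 points (0.355 to 1.56). By clonotypes it was 1.11, and the difference of 0.431 points had an interval that included 0 (−0.303 to 1.24). The TRBV14 ratios there were 1.09 by cells and 1.06 by clonotypes. Under anti-CD137, TRBV15 cells were scarcer in Tex than in Tpex, at 2.30% and 4.77% of cells and a ratio of 0.482, beside 25% of 20 segments past 1.5-fold lower. The TRBV14 share stayed near level, at 5.47% in Tex and 5.20% in Tpex. In Tex over Teff of the same treatment the cell ratios were 1.14 for TRBV14 and 0.600 for TRBV15, the second past 1.5-fold lower beside 33.3% of 21 segments (52.4% in either direction). By clonotypes the ratios of Tex over Tpex were 0.760 for TRBV14 and 0.708 for TRBV15 and both intervals included 0. Those of Tex over Teff were 0.805 for TRBV14 and 0.787 for TRBV15, and again both intervals included 0. Neither was past 1.5-fold there, beside 15% of 20 segments past it lower.

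In Ig control mice TRBV15 was lower in Tpex than in Teff, with ratios of 0.485 by cells and 0.759 by clonotypes, each the lowest of 19 segments. Of those segments 15.8% were past 1.5-fold lower by cells and 0% by clonotypes. TRBV14 had ratios of 0.715 by cells and 0.991 by clonotypes in the same comparison. In Ig control Tex over Teff, both segments were past 1.5-fold lower by clonotypes, with ratios of 0.581 for TRBV14, the lowest of 20, and 0.640 for TRBV15, beside 15% of all segments. The interval of the clonotype difference excluded 0 for both, at −1.88 points (−2.79 to −0.727) for TRBV14 and −1.31 points (−2.16 to −0.213) for TRBV15. By cells the ratios were 0.612 and 0.396 in the same order, beside 47.4% of 19 segments past 1.5-fold lower. Ig control Tex over Tpex gave clonotype ratios of 0.586 for TRBV14 and 0.844 for TRBV15, where 5% of 20 segments were past 1.5-fold lower. By cells the ratios were 0.856 for TRBV14 and 0.817 for TRBV15, neither past 1.5-fold, while 26.3% of 19 segments were lower and 5.26% higher past it, 31.6% together.

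The order of the levels by clonotypes was similar for both segments, with the Tpex and Teff libraries of anti-CD137 mice at the top and Ig control Tex at the bottom, and the intervals of neighbours in that order overlapped for both segments. The TRBV15 interval of Ig control Tpex (2.36% to 3.23%) lay below those of both Teff libraries. Among 19 other segments, each member had the other as its nearest in the pattern of log2 clonotype share over the 6 libraries, at a distance of 0.402. The next nearest were TRBV31 (0.566) and TRBV12-2 (0.568) for TRBV14, and TRBV3 (0.625) and TRBV13-3 (0.634) for TRBV15.

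TRBV14 was the more frequent of the pair in all 6 libraries, by cells and by clonotypes. The cell ratio of TRBV14 over TRBV15 was 1.25 in anti-CD137 and 1.17 in Ig control Teff, 1.09 in anti-CD137 and 1.72 in Ig control Tpex, and 2.38 in anti-CD137 and 1.80 in Ig control Tex. By clonotypes it ranged from 1.12 to 1.61. The interval of the difference included 0 in anti-CD137 Tpex by cells, and in anti-CD137 Tpex and both Tex libraries by clonotypes.

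Most Teff members fell in clusters 0 and 2, Tpex members in cluster 1, and Tex members in cluster 4 under anti-CD137 and cluster 3 under Ig control, as did the cells of other segments. Cluster 5 held 12.9% of TRBV14 cells of anti-CD137 Tpex and 22.1% of its TRBV15 cells, where 13.4% of all its TRB cells lay. The TRBV15 share in that library was 7.86% of the cells of cluster 5 and 4.34% of those of cluster 1, a difference of 3.52 points (1.65 to 5.67), though by clonotypes the difference of 2.09 points included 0 (−0.0659 to 4.75). Between treatments within cluster 1 of Tpex, TRBV15 made up 4.34% of anti-CD137 and 1.82% of Ig control cells (difference 2.51 points, 1.89 to 3.17). Within cluster 5 the shares were 7.86% in anti-CD137 and 1.70% in Ig control cells (difference 6.15 points, 3.51 to 8.50), and by clonotypes 6.16% and 1.85% in the same order. In cluster 1 of Tpex, TRBV14 made up 5.28% of anti-CD137 and 3.06% of Ig control cells. By clonotypes the difference was 1.01 points and its interval included 0 (−0.00372 to 2.07). In cluster 5 the interval of the TRBV14 difference by cells included 0 (−3.97 to 2.09 points).

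In Tex the treatments were also compared within clusters 3 and 4. TRBV14 made up 6.12% of anti-CD137 and 2.88% of Ig control cells of cluster 3, and 5.22% of anti-CD137 and 1.47% of Ig control cells of cluster 4, with differences of 3.24 points (1.91 to 4.75) and 3.75 points (2.45 to 4.76). By clonotypes the TRBV14 difference was 2.42 points in cluster 3 (0.402 to 4.76) and 1.04 points in cluster 4, where the interval included 0 (−2.17 to 3.18). TRBV15 made up 2.46% of anti-CD137 and 1.42% of Ig control cells of cluster 3 (difference 1.04 points, 0.206 to 2.09, and by clonotypes 0.894, −0.743 to 2.84), and 2.28% and 2.27% in cluster 4 in the same order (interval −1.39 to 1.07 points). By clonotypes the TRBV15 difference in cluster 4 was −0.0642 points (−3.38 to 2.15). Cluster 4 of Ig control Tex held only 11 TRBV14 and 17 TRBV15 cells. The labels do not say whether receptor genes entered the clustering.

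The segments differed in the TRBJ they were joined to, counted by clonotype over the 6 libraries (2459 for TRBV14, 1946 for TRBV15, 48983 for other TRBV, a clonotype counting in each library where it was found). TRBJ2-7 was the most used J in all 3 sets, at 21.5% for TRBV14, 27.3% for TRBV15 and 20.8% for other TRBV. Its use by TRBV14 was 5.77 points below that by TRBV15 (interval −8.37 to −3.19), and TRBV15 was higher than TRBV14 in all 6 libraries. TRBJ2-5 went the other way, with 11.8% for TRBV14, 8.17% for TRBV15 and 11.9% for other TRBV (TRBV14 minus TRBV15 3.62 points, 1.82 to 5.41), but TRBV14 was higher in 4 of 6 libraries. Intervals excluded 0 for 5 of 12 TRBJ between TRBV14 and TRBV15, for 4 of 12 between TRBV14 and other TRBV, and for 9 of 12 between TRBV15 and other TRBV. Both members used the TRBJ2 cluster more than other TRBV, at 72.4% for TRBV14, 73.4% for TRBV15 and 68.1% for other TRBV. TRBJ1-2 made up 3.42% for TRBV14, 2.06% for TRBV15 and 5.78% for other TRBV, lower in both members. In anti-CD137 Tpex, TRBJ2-7 made up 33.8% of the 133 TRBV15 clonotypes, against 26.8% of 157 in Ig control Tpex. The intervals of these shares overlapped, as that under anti-CD137 began at 25.9% and that under Ig control ended at 34.4%. For other TRBV the shares were 18.4% and 20.6% in the same order. The treatment difference in TRBJ2-7 use was not tested.

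**Figure D3:**
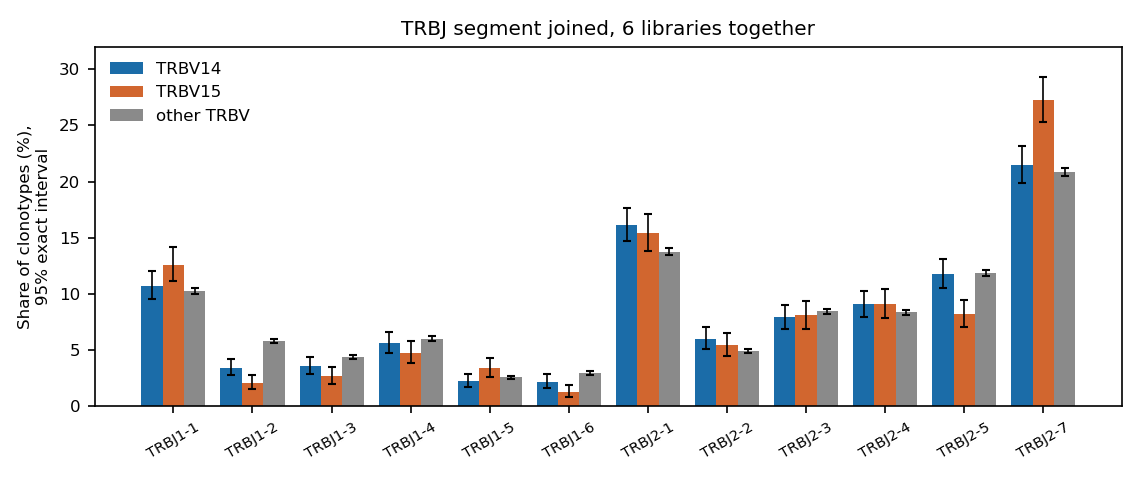
Share of clonotypes, in percent, joined to each TRBJ segment for TRBV14, TRBV15 and all other TRBV, with the 6 libraries together and exact 95% intervals. TRBJ2-7 stands at 21.5% for TRBV14, 27.3% for TRBV15 and 20.8% for other TRBV, and TRBJ2-5 is lowest for TRBV15 at 8.17%.

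The mean CDR3 length of both segments was slightly below that of the other segments pooled. The mean CDR3 length over all clonotypes was 13.7 ± 1.40 amino acids (SD) for TRBV14, 13.6 ± 1.41 for TRBV15 and 13.9 ± 1.45 for other TRBV. Single segments were shorter still: in the 2 Teff libraries together the mean was 13.71 for TRBV14 and 13.68 for TRBV15, against 13.66 for TRBV13-3, 13.57 for TRBV29 and 13.05 for both TRBV20 and TRBV30. In these libraries, 13 amino acids were found in 22.7% of TRBV14, 25.5% of TRBV15 and 17.8% of other clonotypes. Between treatments the mean over clonotypes differed by 0.0983 amino acids in Teff, 0.0852 in Tpex and −0.240 in Tex for TRBV14, and by −0.0613 in Teff and −0.171 in Tpex for TRBV15 (anti-CD137 minus Ig control), with intervals that all included 0. TRBV15 in Tex averaged 13.9 amino acids over 40 anti-CD137 clonotypes and 12.7 over 26 Ig control clonotypes, a difference of 1.18 (interval 0.511 to 1.85). Over cells that order was reversed, at 13.4 under anti-CD137 and 14.2 under Ig control, where the largest Ig control clone had a CDR3 of 16 amino acids and 53.1% of the cells. Over TRBV14 cells in Tex the means were 14.2 under anti-CD137 and 12.4 under Ig control, where 2 clones of 12 amino acids held most cells.

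At the junction, TRBV14 chains kept on average 12.9 of the 16 germline V bases of CDR3 and TRBV15 chains 13.0 of 17, counted as the bases matching the germline without a break from the V side, chance matches included. Exactly 11 bases were kept by 23.7% of TRBV14 and 23.4% of TRBV15 clonotypes, and exactly 14, the shared start, by 23.4% and 18.2% in the same order. All germline V bases were kept by 6.47% of TRBV14 and 3.24% of TRBV15 clonotypes, against 23.4% of the others. The others pool segments whose germline CDR3 part runs from 14 bases (TRBV20) to 21 (TRBV3). In the 2 Teff libraries together the mean loss was 3.04 V bases for TRBV14 and 3.94 for TRBV15. Single other segments ranged from 1.20 for TRBV2 to 7.32 for TRBV3, with 3.04 for TRBV19 and 3.88 for TRBV29. Between the V and J matches lay a mean of 10.2 ± 3.97 bases for TRBV14, 10.0 ± 4.05 for TRBV15 and 9.97 ± 3.88 for other TRBV (SD).

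The TRB transcript was captured at different depth for the 2 segments. Among Teff cells with a single TRB contig, the median was 8 TRB UMIs for TRBV14 in both libraries, 16 for TRBV15 in both, and 8 under anti-CD137 and 9 under Ig control for other TRBV. TRBV15 had the highest median of 22 segments in both Teff libraries, level with TRBV17 at 16, and the highest of 21 in anti-CD137 Tpex, where its median was 9 and that of TRBV14 was 7. In Ig control Tpex the medians were 18 for TRBV14 and 27 for TRBV15, and in anti-CD137 Tex 12 for TRBV14 and 19 for TRBV15. TRBV17 was above TRBV15 in the other libraries, at 24 in anti-CD137 Tex, 29.5 in Ig control Tpex and 38 in Ig control Tex. In Ig control Tex the medians over cells were 30 for TRBV14 and 29.5 for TRBV15, and over clonotypes they were 20.8 for TRBV14, 43.6 for TRBV15 and 20 for other TRBV. UMIs per cell did not follow it: anti-CD137 Teff cells with 1 TRB had a median of 3854 UMIs with TRBV14, 3809 with TRBV15 and 3862 with another segment. Cells with a second TRB contig made up 14.97% of TRBV14 and 22.9% of TRBV15 cells in anti-CD137 Teff, and 12.5% and 21.4% in Ig control Teff in the same order, and the choice of the contig with more UMIs can favour a segment with more UMIs. With cells of exactly 1 TRB contig, the treatment difference of TRBV15 in Tpex was 2.95 points (2.32 to 3.62). That setting removes the choice between contigs, but it cannot show whether cells with TRBV15 were more readily found to have a TRB. TRBV17 made up 4.35% of anti-CD137 and 1.87% of Ig control Tpex cells, and 3.00% and 3.02% of clonotypes in the same order. The part of capture depth in these shares was not tested.

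**Figure D4:**
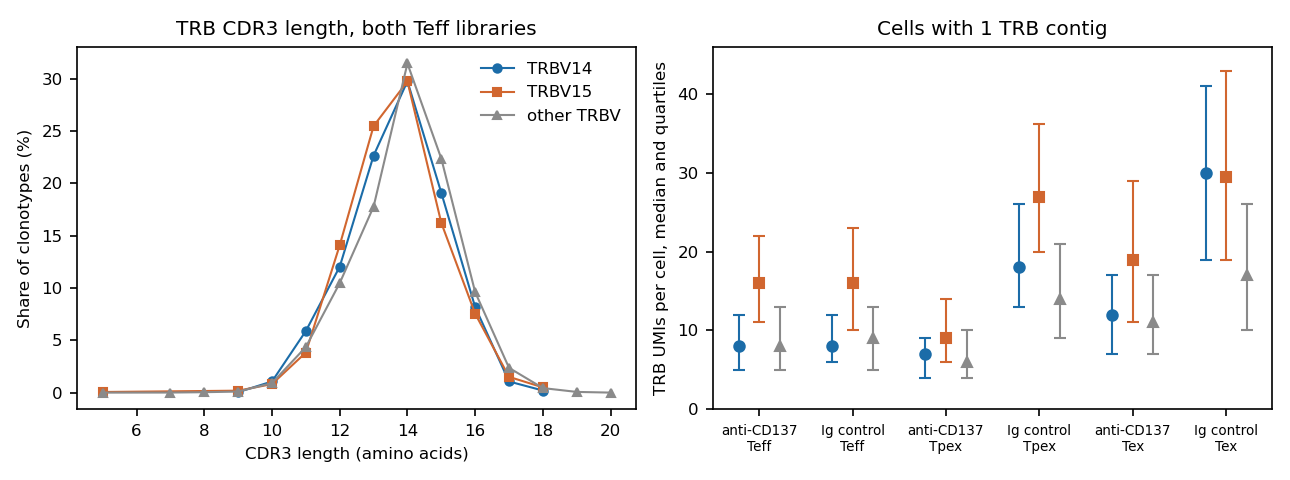
Left, share of clonotypes in percent by CDR3 length in amino acids, in both Teff libraries together. Right, TRB UMIs per cell in cells with 1 TRB contig, as the median with its quartiles, for each library. In anti-CD137 Teff the medians are 8 for TRBV14, 16 for TRBV15 and 8 for other TRBV.

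The α chains paired with the members were diverse, and with the 6 libraries together no TRAV exceeded 7.03% of the clonotypes with a TRA. TRBV14 was joined most often by TRAV12-2 (6.37% of 2119) and TRAV9N-3 (5.33%), and TRBV15 by TRAV12D-3 (7.03% of 1679) and TRAV12-2 (5.36%). Among 42164 clonotypes of other TRBV the shares were 4.96% for TRAV12-2, 3.12% for TRAV9N-3 and 4.76% for TRAV12D-3. TRAV9N-3 was higher with TRBV14 than with TRBV15 by 2.41 points (1.11 to 3.70), and TRAV12D-3 differed by −3.44 points (−4.97 to −1.97). TRAV12D-3 made up 7.92% of anti-CD137 and 7.80% of Ig control Teff clonotypes with TRBV15, and 2.63% and 5.52% of those in Tpex in the same order. In Tex it was found in 0 of 36 anti-CD137 and 0 of 24 Ig control clonotypes with TRBV15. With TRBV14 it was found there in 1 of 45 and 4 of 27 in the same order, so the higher TRBV15 share was not seen in Tex. TRAJ22 was the most frequent TRAJ with 9.25% for TRBV14, 10.3% for TRBV15 and 7.84% for other TRBV. The TRAV11 and TRAJ18 pair of invariant natural killer T cells was found in 0 of 2800 TRBV14 cells with a TRA, which allows up to 0.107%, and in 0 of 2085 TRBV15 cells, which allows up to 0.144%. It was found in 27 of 59776 cells of other TRBV. The TRAV1 and TRAJ33 pair of mucosal-associated invariant T cells was found in 1 TRBV14 cell and 0 TRBV15 cells.

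Clonotypes were mostly single cells in Teff, while in Tex most cells lay in clonotypes of at least 5 cells, under both treatments. In Teff, 1076 of 1099 TRBV14 clonotypes under anti-CD137 and 826 of 870 under Ig control were single cells, and for TRBV15 854 of 882 and 658 of 708 in the same order. In Tex, single cells still made up 26 of 51 TRBV14 clonotypes under anti-CD137 and 22 of 29 under Ig control. For TRBV15 they made up 25 of 40 and 18 of 26 in the same order. The 3 largest clonotypes in Tex held 60.8% of TRBV14 cells under anti-CD137 and 85.0% under Ig control, and 43.3% and 73.1% of TRBV15 cells. Expanded cells, those in a clonotype of at least 2 cells after every library was reduced in expectation to 5837 TRB cells, made up 91.8% of TRBV14 cells in anti-CD137 and 90.04% in Ig control Tex. The same share of TRBV15 cells was 81.3% in anti-CD137 and 85.1% in Ig control Tex. Both differences included 0.

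In Tpex the expanded share was 73.9% of anti-CD137 and 33.7% of Ig control TRBV14 cells, a difference of 40.1 points (31.1 to 48.5). It was 74.6% of anti-CD137 and 27.8% of Ig control TRBV15 cells, a difference of 46.8 points (35.7 to 56.3). Cells of other TRBV had 68.1% and 54.1% in the same order. Clonotypes of 2 to 4 cells held 175 of 311 TRBV14 and 136 of 285 TRBV15 cells in anti-CD137 Tpex. When the TRA and TRB together defined the clonotype, the expanded shares in Tpex became 32.2% of anti-CD137 and 27.6% of Ig control TRBV14 cells (difference 4.57 points, −5.34 to 14.3), and 38.4% and 21.5% of TRBV15 cells (difference 16.9 points, 5.06 to 27.9). This definition kept only cells with a TRA, and the common depth became the smallest number of them in any library. Agreement between the chains was lower in anti-CD137 Tpex. Of the clonotypes with at least 5 cells with a TRA, a single TRA was carried by at least 50% of those cells in 2 of 3 for TRBV14 and 3 of 6 for TRBV15 in anti-CD137 Tpex, and in 7 of 7 and 2 of 2 in Ig control Tpex. For other TRBV the counts were 55 of 89 in anti-CD137 and 209 of 209 in Ig control Tpex. That library also had the lowest median UMIs per cell and the most TRB barcodes outside the cell table, and their part in the expanded share was not tested.

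In Teff the expanded share of TRBV15 cells was 2.44% under anti-CD137 and 7.50% under Ig control, a difference of −5.06 points (−9.94 to −1.11), while that of TRBV14 cells was 3.401% and 3.218% in the same order. With a TRB of at least 5 UMIs the TRBV15 shares were 1.83% under anti-CD137 and 4.04% under Ig control, and the interval included 0 (−6.48 to 1.52), as it did under 3 of the 5 alternatives tried. The setting of at least 5 UMIs took its common depth from the smallest library among the cells it kept.

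**Figure D5:**
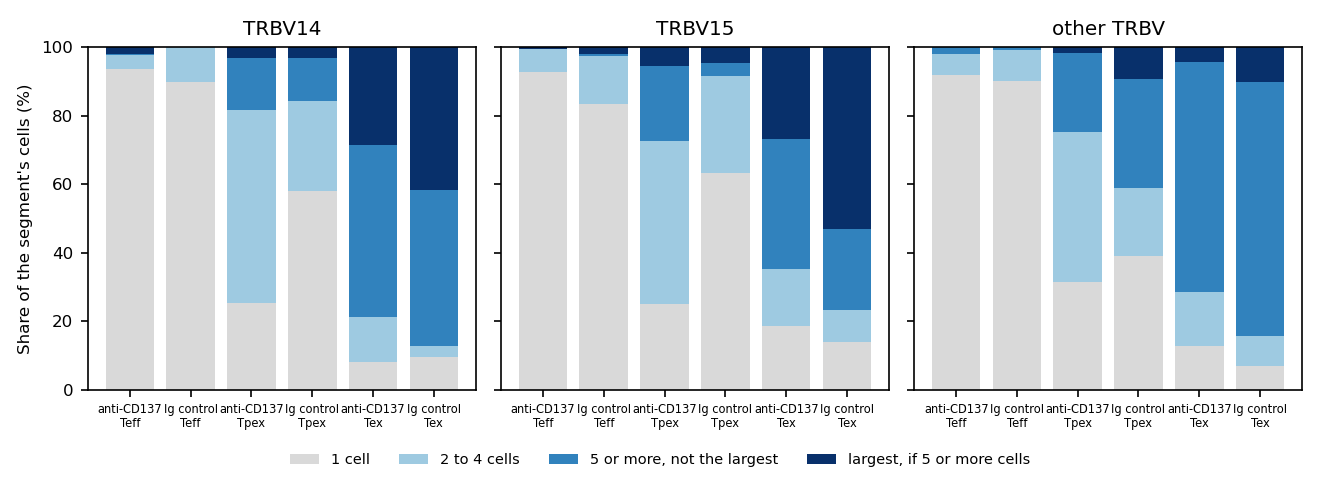
Share of the cells of TRBV14, TRBV15 and other TRBV, in percent, that lie in clonotypes of 1 cell, of 2 to 4 cells, of 5 or more cells, and in the largest clonotype of the segment where it has at least 5 cells, per library and without reduction to a common depth. In anti-CD137 Tex the largest clonotype holds 28.5% of TRBV14 and 26.9% of TRBV15 cells, against 41.9% and 53.1% in Ig control Tex.

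The largest clones show what carried these shares, and their CDR3 bases are given because these bases, with TRBV and TRBJ, define a TRB clonotype here. Cells of 1 TRB clonotype did not always carry the same TRA. Capitals mark the bases between the V and J matches to the germline.

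TRBV14 clonotype 1 (TRBJ2-1): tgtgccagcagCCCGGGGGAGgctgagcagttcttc
TRBV14 clonotype 2 (TRBJ1-1): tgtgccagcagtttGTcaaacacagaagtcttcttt
TRBV14 clonotype 3 (TRBJ2-4): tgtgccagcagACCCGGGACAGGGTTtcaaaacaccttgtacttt
TRBV14 clonotype 4 (TRBJ2-7): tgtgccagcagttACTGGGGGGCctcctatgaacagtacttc
TRBV14 clonotype 10 (TRBJ1-1): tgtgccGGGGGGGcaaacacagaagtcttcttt
TRBV14 clonotype 11 (TRBJ2-5): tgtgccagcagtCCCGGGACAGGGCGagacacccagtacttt
TRBV15 clonotype 1 (TRBJ2-2): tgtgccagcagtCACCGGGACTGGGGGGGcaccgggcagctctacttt
TRBV15 clonotype 2 (TRBJ2-7): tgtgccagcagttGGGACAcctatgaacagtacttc
TRBV15 clonotype 3 (TRBJ2-7): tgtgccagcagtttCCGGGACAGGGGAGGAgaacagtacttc
TRBV15 clonotype 10 (TRBJ2-4): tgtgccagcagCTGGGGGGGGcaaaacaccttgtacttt
TRBV15 clonotype 13 (TRBJ2-7): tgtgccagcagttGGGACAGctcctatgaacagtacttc

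Among TRBV14 clones, clonotypes 3 and 4 were found under anti-CD137, with 91 and 67 cells in Tex and 6 and 9 cells in Tpex. Clonotype 3 carried TRAV12N-2 with TRAJ13 in 78 of 81 paired cells, and clonotype 4 carried TRAV13-4-DV7 with TRAJ33 in 67 of 69. Clonotype 1 had 98 cells in Ig control Tex and 1 in Ig control Tpex, and TRAV13D-4 with TRAJ22 was the TRA of all 90 cells that had one. Clonotype 2 had 92 cells in Ig control Tex and 6 in Ig control Tpex, all 95 paired cells with TRAV10D and TRAJ23, and a junction of 2 bases. Most cells of clonotype 3 (73 of 97) lay in cluster 4, and most of clonotype 1 (94 of 99) in cluster 3. Clonotype 11 had 10 cells in anti-CD137 Tpex, the largest TRBV14 clonotype there, and its 9 paired cells over all libraries carried 7 different TRA chains. Clonotype 10, with 12 cells in Ig control Tpex, kept only 6 germline V bases and carried 1 TRA in all its 12 cells. In Teff the largest TRBV14 clonotype had 23 cells under anti-CD137, of which 16 lay in cluster 6, and the largest under Ig control had 4 cells.

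Among TRBV15 clones, clonotype 2 was found in all 3 subsets of anti-CD137 mice, with 36 cells in Tex, 16 in Tpex and 2 in Teff, and TRAV4-3 with TRAJ40 in 38 of 40 paired cells. Its CDR3 was also found in 130 barcodes outside the cell table. Clonotype 3 had 11 cells in each of anti-CD137 Tex and Tpex, with TRAV13N-2 and TRAJ17 in 10 and TRAV2 and TRAJ39 in 8 of 18 paired cells, of which 7 had 2 TRA contigs. Clonotype 1 had 69 cells in Ig control Tex and 10 in Ig control Tpex, and TRAV8D-2 with TRAJ4 was the TRA in all 79. Clonotypes 10 and 13 were the members with at least 5 cells that occurred under both treatments. Clonotype 10 had 1 cell in anti-CD137 Teff and 8 in Ig control Tpex, with TRAV10 and TRAJ48 in 8 of 9 paired cells. Clonotype 13 had 2 cells in anti-CD137 and 3 in Ig control Teff, with 3 different TRA among 4 paired cells. The largest Teff clonotype had 5 cells under anti-CD137 and 16 under Ig control, where 13 lay in cluster 6.

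The 2401 distinct TRBV14 and 1890 distinct TRBV15 clonotypes were mostly private to a library. For TRBV14, 51 were found in at least 2 libraries and 7 in at least 3. For TRBV15 the counts were 53 and 3. The clonotypes in at least 3 libraries all lay within 1 treatment. Most Tex cells had a TRB that was also found in Tpex of the same treatment: 83.4% of TRBV14 cells under anti-CD137 and 88.0% under Ig control, and 72.4% and 83.1% of TRBV15 cells in the same order. Cells of other TRBV had 64.3% under anti-CD137 and 81.0% under Ig control. The TRBV14 excess over other TRBV was 19.1 points under anti-CD137 (14.4 to 23.2), but by clonotypes the share was 45.1% for TRBV14 and 33.7% for other TRBV and the interval included 0 (−2.88 to 26.2). In the other direction, 26.4% of TRBV14, 29.1% of TRBV15 and 25.7% of other cells in anti-CD137 Tpex had a TRB found in Tex. In Ig control Tpex these shares were 10.9% for TRBV14, 16.7% for TRBV15 and 40.7% for other TRBV. By clonotypes they were 4.76% for TRBV14, 9.55% for TRBV15 and 9.74% for other TRBV, with differences from other TRBV of −4.98 points for TRBV14 (−7.40 to −1.48) and −0.185 points for TRBV15 (−4.38 to 5.58).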

How the data were processed

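Seurat 4.0.0, Cell Ranger 3.0.2 and the mm10 build are listed in the submitters' processing notes. The authors deposited a contig table with UMI counts per TRA and TRB contig and a cell table with UMI counts, the percent of mitochondrial and ribosomal transcripts, and cluster numbers. Other steps are not given in the sources used here. The members and lists were chosen with earlier results of these data known.

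Each contig was matched to its cell through the barcode within its library, and the TRB with the most UMIs was taken per cell. Ties concerned 63 members. Doublets were not called. Shares carry exact Clopper-Pearson intervals at 95%, and differences of shares carry Newcombe intervals built from them. For expanded shares these used the expected counts rounded to whole cells. Differences in mean CDR3 length carry normal 95% intervals from standard errors with unequal variances, over clonotypes or cells. Segments entered a ratio where they reached 1% in either library, and clusters were used from 200 TRB cells. Named clonotypes were those with at least 5 cells that were among the 3 largest of a segment in a library, or were found in at least 3 libraries or under both treatments. Germline ends came from GENCODE M21 for 21 of 22 segments. Likeness was the Euclidean distance of centred log2 clonotype shares. The intervals of differences in shares were tested on simulated independent counts. Those counts held no clones, so coverage for clonal cells was not tested. Python 3.11.15, numpy 2.4.6, pandas 2.3.3, scipy 1.17.1 and matplotlib 3.10.9 were used.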

Additional observations from a re-analysis of the deposited data

Results flagged for a closer look

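The expanded share of TRBV15 cells differed between treatments in opposite directions in 2 subsets, by 46.8 points in Tpex and by −5.06 points in Teff (anti-CD137 minus Ig control). These lie 51.8 points apart, and the difference between them was not tested.

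TRB barcodes outside the cell table also carried both segments. In Tpex, TRBV14 made up 5.49% of 11950 such barcodes under anti-CD137 and 2.83% of 1838 under Ig control, and TRBV15 made up 6.64% under anti-CD137 and 1.80% under Ig control. In Tex, TRBV15 made up 6.08% of 2960 such barcodes under anti-CD137 and 1.09% of 276 under Ig control, against 2.30% and 1.52% of the cells in the table in the same order. TRBV14 made up 5.95% of such barcodes in Tex under anti-CD137 and 6.88% under Ig control, against 5.47% and 2.73% of the cells in the table. Single clonotypes weighed on these Tex shares. For TRBV14 the largest held 61 of 176 barcodes under anti-CD137 and 17 of 19 under Ig control. For TRBV15 it held 48 of 180 under anti-CD137, and Ig control had only 3 barcodes.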

How the results depend on the processing

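With 1 library per group no replicate could be left out. No paired analysis was possible because the groups compared share fewer than 2 replicate numbers. Of the alternative values, 115 lay within the interval of the value reported (or, for counts, within 1.5 times), 13 lay outside it and 1 reversed a difference whose interval excluded 0. Among 120 alternatives with an interval, 7 changed sign, 6 no longer excluded 0 and 7 newly did. Sign changes without a called difference include TRBV15 by cells in Teff, at −0.112 points without shared barcodes. TRBV14 by clonotypes in Teff newly excluded 0 at 0.504 points without shared barcodes, as did the CDR3 length difference over cells in Tpex, at 0.249 for TRBV14 and −0.266 for TRBV15. The treatment differences in share of cells kept their direction under all 8 alternatives, at 1.45 to 3.77 points for TRBV14 and 2.40 to 4.16 for TRBV15 in Tpex, and 2.31 to 3.41 for TRBV14 and 0.237 to 2.07 for TRBV15 in Tex. The TRBV15 interval in Tex included 0 under 2 of them.

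Among cells of like UMI depth, chosen after the data were seen, the difference was 3.77 points for TRBV14 in Tpex, with only 255 Ig control cells, and 0.237 for TRBV15 in Tex. With all TRB barcodes it was 4.16 for TRBV15 in Tpex and 2.07 in Tex, and with a TRB of at least 5 UMIs 3.65 in Tpex. The expanded share without reduction to a common depth differed by −3.77 points for TRBV14 in Teff. With TRA and TRB as the clonotype it differed in Tpex by 4.57 for TRBV14 and 16.9 for TRBV15. From 5 cells up it differed by 11.2 for TRBV14 and 21.2 for TRBV15 in Tpex, and by −6.53 for TRBV14 in Tex. The CDR3 length difference in Tex over cells was 1.87 for TRBV14 and −0.842 for TRBV15, where the TRBV15 value is the one that reversed. In Tex, 3 segments passed 1.5-fold in either direction by clonotypes, against 12 by cells. The causes were not tested.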

Other observations

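A few clonotypes with the same TRBV, TRBJ and CDR3 bases occurred under both treatments, 9 with TRBV14 and 12 with TRBV15. Their junctions held a mean of 7.78 ± 4.18 bases for TRBV14 and 8.00 ± 2.37 for TRBV15 (SD over clonotypes), against 10.2 ± 3.96 and 9.99 ± 4.05 in clonotypes of a single library. A TRA was known on both sides for 4 TRBV14 and 8 TRBV15 clonotypes, and the same TRA was found on both sides in 0 and 0. Among clonotypes shared by libraries of 1 treatment, the same TRA was found for TRBV14 in 14 of 26 under anti-CD137 and 12 of 14 under Ig control, and for TRBV15 in 9 of 17 and 14 of 16 in the same order. These sets were chosen after the data were seen, and the differences were not tested.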
